A study of Bos indicus with 5 samples.

Results

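The actin genes of the cow were described in the ampulla of the oviduct, by every entry of the deposited expression table whose symbol was ACTA1, ACTA2, ACTB, ACTC1, ACTG1 or ACTG2. These 6 symbols gave 6 entries of 24616 genes in the table. ACTA1, ACTA2, ACTC1 and ACTG1 had 1 entry each, ACTB had 2 entries with different Ensembl identifiers, and ACTG2 had none. The genes were chosen by symbol after the normalized read counts of the ACTB entries, and their difference between the groups, had been seen in these same libraries. For that reason the levels and differences of the actin entries are given as a description with no test.

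The study asked how the size of the ovulatory follicle, and of the corpus luteum that forms from it, relates to transcripts in the oviduct. Tissue came from healthy multiparous Nelore cows (Bos indicus) under 2 hormone treatments, LF/LCL (large follicle, large corpus luteum) and SF/SCL (small follicle, small corpus luteum). Full-thickness ampulla was taken on day 4, on the side of the corpus luteum, from 2 LF/LCL and 3 SF/SCL animals, 1 library per animal, and polyA RNA was sequenced. A further LF/LCL ampulla library was discarded by the authors, for poor library quality and few reads. All cows were presynchronized with a prostaglandin F2α analogue and a GnRH agonist, and later received an intravaginal progesterone device together with estradiol benzoate. All also received prostaglandin at device removal and again some hours later, and GnRH to induce ovulation. LF/LCL cows had an additional prostaglandin injection when the device was inserted, and lost the device 42 h before GnRH, against 30 h in SF/SCL cows. The extra injection and the earlier removal came together, so they cannot be told apart. Animals were picked for sequencing from the upper end of LF/LCL and the lower end of SF/SCL, ranked on follicle, luteal and hormone measurements, so the groups stand for the ends of each treatment.

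Actin is the protein of the thin filament. Monomers bind ATP, add to the growing end of a filament and leave from the other, and the filaments serve cell shape, adhesion, transport and, together with myosin, contraction. Mammals make β-actin (ACTB) and γ-actin (ACTG1) in nearly all cells, α (ACTA2) and γ (ACTG2) actin in smooth muscle, and α actins of skeletal (ACTA1) and cardiac (ACTC1) muscle. The proteins are nearly the same and differ mostly at their amino end, and the coding sequences are also much alike. The ampulla is a folded epithelium of ciliated and secretory cells over a stroma and a thin coat of smooth muscle.

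Libraries held between 13418278 and 19592174 reads assigned to genes, and 17431 to 17653 genes had a read in each. The epithelial markers OVGP1, TPPP3 and EPCAM averaged 133230, 20241 and 13343 normalized reads, so the labelled tissue carried its defining transcripts. Values are normalized read counts, meaning reads divided by a library size factor. They are not corrected for transcript length, so the order of reads between genes is not the order of transcript numbers. Only reads with a unique alignment were counted, so that actin genes, which resemble each other, can lose reads or receive those of another copy, and the level of each entry is uncertain to that extent.

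Reads of the cytoplasmic actins were the most abundant. The main ACTB entry (ENSBTAG00000026199) had 26828 and 24616 normalized reads in replicates 1 and 2 of LF/LCL, and 20895, 18969.8 and 17653 in replicates 1, 2 and 3 of SF/SCL. ACTG1 (ENSBTAG00000006189) had 41713 and 39854 normalized reads in LF/LCL against 37999.7, 29506 and 23259 in SF/SCL. For both genes each LF/LCL library lay above every SF/SCL library, by a narrow gap: the lower LF/LCL value was 1.18 times the highest SF/SCL value for ACTB and 1.05 times for ACTG1. The group means of ACTB were 25722 ± 1564 (SD, n = 2) and 19172 ± 1630.4 (SD, n = 3), a log2 difference of 0.43 ± 0.12 (SE). Those of ACTG1 were 40783 ± 1315 (SD, n = 2) and 30255 ± 7399 (SD, n = 3), a log2 difference of 0.46 ± 0.21 (SE). Here and below a log2 difference is LF/LCL minus SF/SCL on the scale of log2(value + 1), with the SE of a limma fit across all genes.

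The smooth muscle isoform varied far more between animals. ACTA2 (ENSBTAG00000014614) had 28142 and 15733 normalized reads in LF/LCL against 10149, 9629.8 and 2952 in SF/SCL. The highest library held 9.53 times the lowest, and the groups did not overlap. Mean levels were 21937 ± 8775 (SD, n = 2) and 7577 ± 4014 (SD, n = 3), a log2 difference of 1.67 ± 0.59 (SE). In LF/LCL replicate 1 ACTA2 reads exceeded those of the main ACTB entry, and in SF/SCL replicate 3 they were at 0.167 of them. In tissue of many cell types, fewer cells of a type and less RNA per cell cannot be told apart, which holds for every difference given here.

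Reads of the striated muscle isoforms were fewer. ACTA1 (ENSBTAG00000046332) had 4146 and 2135 normalized reads in LF/LCL against 1277, 1389.6 and 289.8 in SF/SCL, with means of 3140.5 ± 1422 (SD, n = 2) and 985.4 ± 605.0 (SD, n = 3) and a log2 difference of 1.89 ± 0.74 (SE). ACTC1 (ENSBTAG00000005714) had 1353 and 573.0 in LF/LCL against 198.6, 397.9 and 33.3 in SF/SCL, with means of 963.2 ± 551.8 (SD, n = 2) and 209.9 ± 182.6 (SD, n = 3) and a log2 difference of 2.66 ± 1.05 (SE). Neither gene had overlapping groups, but for both LF/LCL replicate 2 stood nearer to SF/SCL replicate 2 than to LF/LCL replicate 1 in normalized reads. The ACTC1 value of SF/SCL replicate 3 rested on 31 reads, against 1154 in LF/LCL replicate 1.

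The second entry with the symbol ACTB (ENSBTAG00000015441) is called the duplicate ACTB entry by its symbol only. It did not follow the main one. Its normalized reads were 15056 and 6206 in LF/LCL against 2311, 5145 and 385.3 in SF/SCL, from 12838 recovered reads in LF/LCL replicate 1 down to 359 in SF/SCL replicate 3. The highest library held 39.1 times the lowest, against 1.52 times for the main entry. Group means were 10631 ± 6258 (SD, n = 2) and 2614 ± 2394 (SD, n = 3), a log2 difference of 2.54 ± 1.09 (SE). Within groups its log2 SD was 1.65, and 98.5% of the 15815 genes tested had a lower one. The corresponding SD of the main entry was 0.112. A current RefSeq gene table for Bos indicus holds 1 gene for ACTB and 1 for ACTG2, but its records carry no Ensembl identifiers and it describes another assembly, so the duplicate entry could not be matched to a gene.

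**Figure D1:**
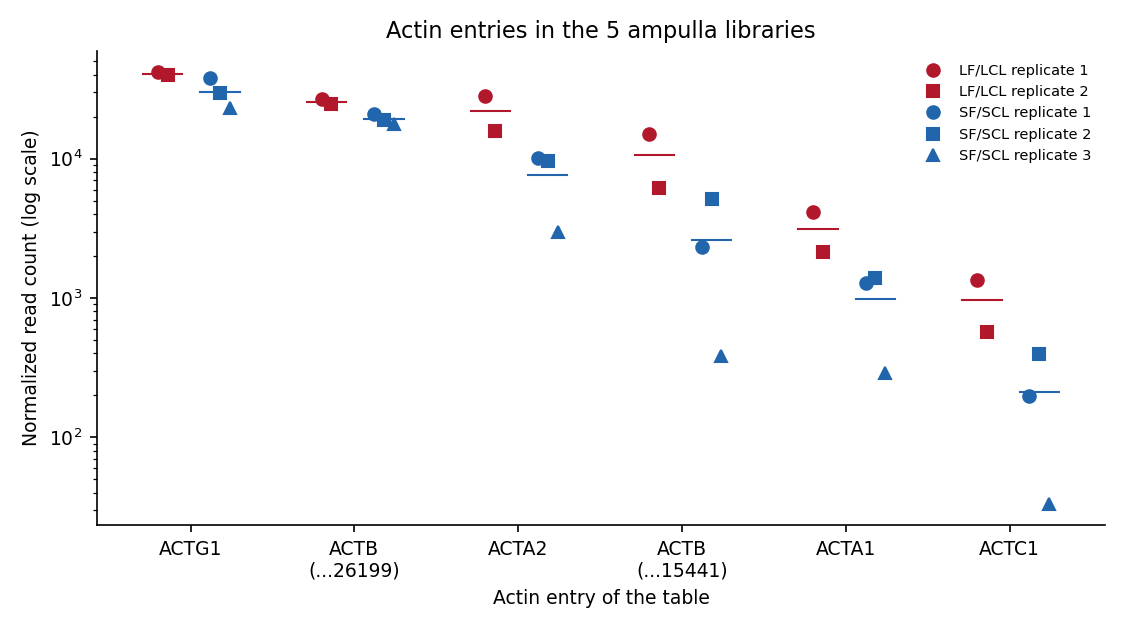
Normalized read counts (log axis) of the 6 actin entries in each of the 5 libraries, LF/LCL in red and SF/SCL in blue, with a bar at each group mean. In every entry the highest library is LF/LCL replicate 1 and the lowest is SF/SCL replicate 3, and the spread widens from ACTB (ENSBTAG00000026199), at 1.52-fold, to ACTC1, at 40.7-fold.

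All 6 entries passed the filter of a mean over 5, and for all 6 the groups did not overlap, with LF/LCL higher. Of the 15815 genes tested, 2371 had that pattern, or 15%, but nothing is read from the count for the actins, since their contrast was known when they were picked. In each entry the highest value was in LF/LCL replicate 1 and the lowest in SF/SCL replicate 3. Those libraries set much of the size of the differences. Without SF/SCL replicate 3, the log2 difference was 1.49 for the duplicate ACTB entry and 1.64 for ACTC1, and without SF/SCL replicate 2 it was 3.35 and 3.41. That of ACTA2 went from 1.09 without SF/SCL replicate 3 to 2.09 without LF/LCL replicate 2, and that of ACTA1 from 1.16 to 2.37 for the same omissions. That of the main ACTB entry ranged only from 0.36 to 0.49.

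The makeup of the actin reads shifted between libraries. The actin entries took 0.745% of all assigned reads in LF/LCL replicate 1 (95% Wilson interval 0.740 to 0.750) and 0.569% in LF/LCL replicate 2. SF/SCL libraries gave 0.474%, 0.427% and, in replicate 3, 0.291% (0.288 to 0.294). These intervals cover counting error only. Of the actin reads, the main ACTB entry and ACTG1 together made up 58.5% and 72.3% in LF/LCL against 80.9%, 74.5% and 91.8% in SF/SCL. The 3 muscle isoforms ACTA1, ACTA2 and ACTC1 made up 28.7% and 20.7% in LF/LCL against 16.0%, 17.6% and 7.35% in SF/SCL. The share of the muscle isoforms averaged 24.7% ± 5.66 (SD, n = 2) against 13.6% ± 5.49 (SD, n = 3). The duplicate ACTB entry took 12.8% and 6.96% in LF/LCL against 3.17%, 7.91% and 0.864% in SF/SCL, with overlapping groups. With this entry added to the 3 muscle isoforms, the share averaged 34.6% ± 9.81 (SD, n = 2) against 17.6% ± 8.73 (SD, n = 3).

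**Figure D2:**
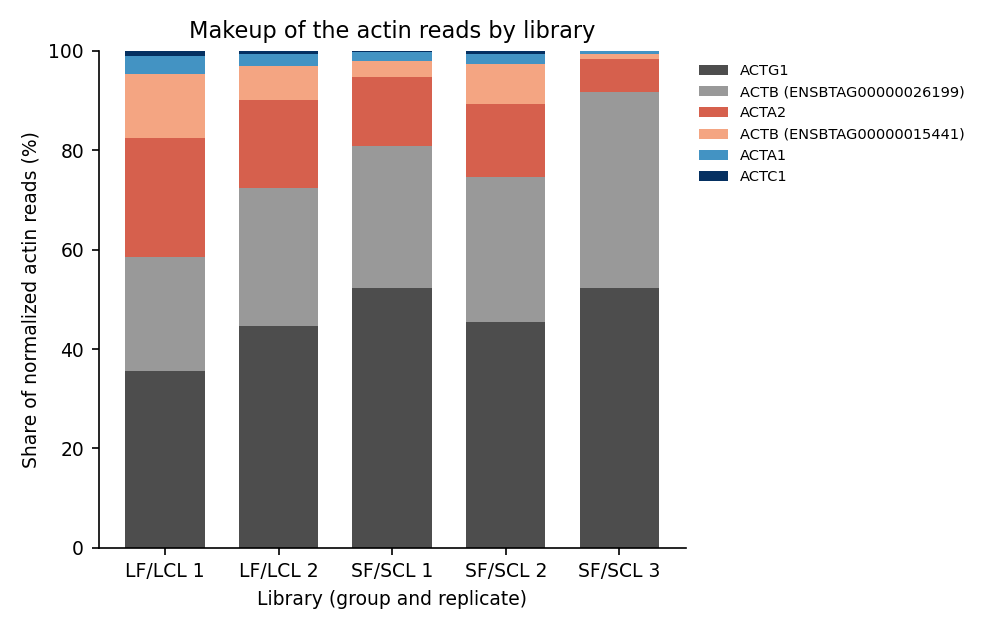
Share (%) of each actin entry in the normalized actin reads of each library, stacked to 100%. The ACTG1 and main ACTB blocks together grow from 58.5% in LF/LCL replicate 1 to 91.8% in SF/SCL replicate 3.

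Ratios within a library do not depend on its size factor, and 15 were computed, 1 for each pair of entries. The ratio with the narrowest range was that of the duplicate ACTB entry to ACTC1. It was 11.1 and 10.8 in LF/LCL against 11.6, 12.9 and 11.6 in SF/SCL, while both entries varied about 40-fold on their own (39.1 and 40.7). Both LF/LCL ratios lay below every SF/SCL ratio. The exact 95% counting intervals of this ratio were 10.5 to 11.8, 9.95 to 11.8, 10.04 to 13.6, 11.8 to 14.2 and 8.01 to 17.3 in the same order. The intervals of every pair of libraries shared values, except those of LF/LCL replicate 2 and SF/SCL replicate 2.

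Other pairs kept their proportion less closely. ACTG1 to the main ACTB entry was 1.55 and 1.62 in LF/LCL against 1.82, 1.56 and 1.32 in SF/SCL, a range of 1.38-fold. ACTA1 to ACTA2 was 0.147 and 0.136 in LF/LCL against 0.126, 0.144 and 0.098 in SF/SCL, a range of 1.501-fold. These are the cytoplasmic pair and a pair of α actins of muscle. By contrast the duplicate ACTB entry was at 0.561 and 0.252 of the main ACTB entry in LF/LCL against 0.111, 0.271 and 0.0218 in SF/SCL, a range of 25.7-fold with overlapping groups.

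**Figure D3:**
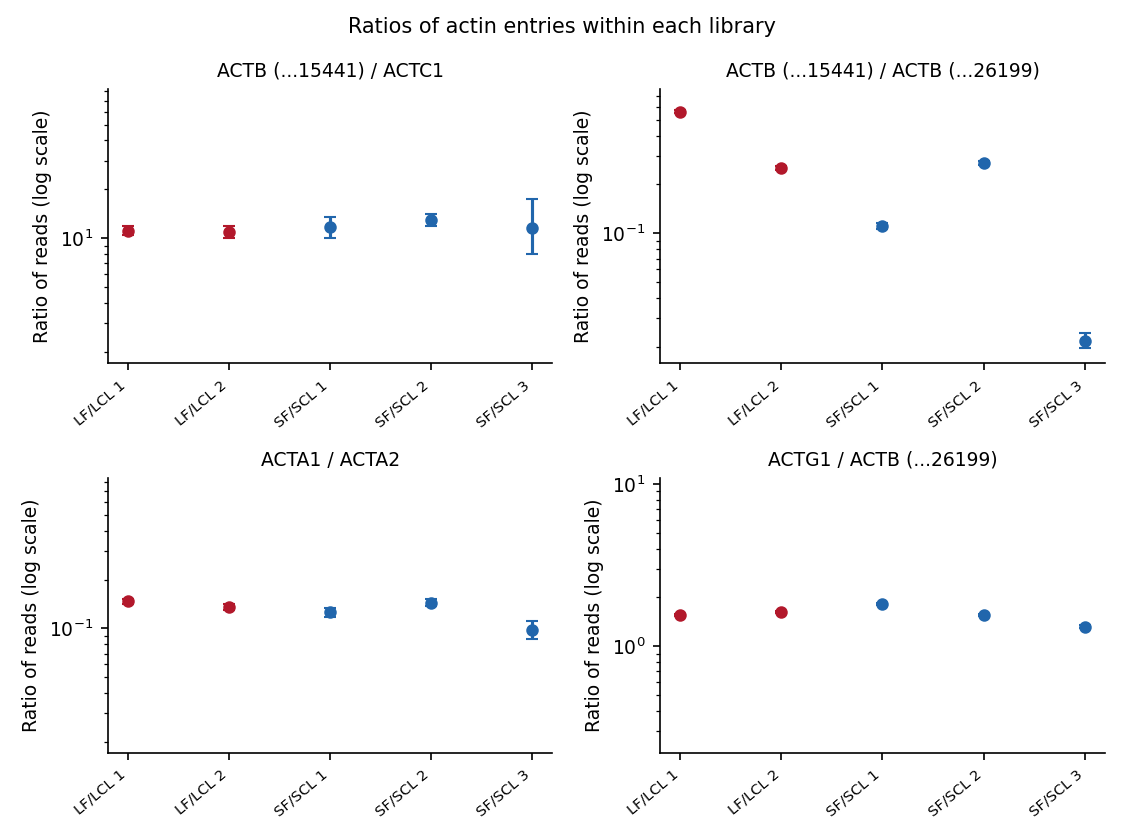
Ratios of reads between actin entries in each library (log axes of equal span in the 4 panels), LF/LCL in red and SF/SCL in blue, with exact 95% counting intervals. The duplicate ACTB entry kept between 10.8 and 12.9 reads per ACTC1 read, while its ratio to the main ACTB entry went from 0.561 to 0.0218.

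Likeness of patterns was measured as the root mean square difference of log2 values over the 5 libraries, after each gene was centred on its own mean, among 11946 genes with a symbol and a mean of at least 50. Between the duplicate ACTB entry and ACTC1 it was 0.088, and 0 of the other genes were nearer to either. Between the ACTB entries it was 1.60, and 1022 genes were nearer to the duplicate entry than the main entry was. Outside the actins, the genes nearest to the duplicate entry were TFAP2C (0.20), a transcription factor, PLIN4 (0.27), a lipid droplet coat protein, and then JPH2 (0.41), ASB2 (0.43) and POSTN (0.52). The same 5 genes were nearest to ACTC1, with TFAP2C at 0.22 and PLIN4 at 0.23. The lowest values of TFAP2C and PLIN4 were 10.7 normalized reads each and that of JPH2 5.37, so their patterns rest on few reads there. JPH2, junctophilin 2, joins the plasma membrane to the calcium store in muscle, and POSTN is periostin, a matrix protein.

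Smooth muscle ACTA2 had closer neighbours, with TPM2 (0.054), a tropomyosin that lies along actin filaments, ahead of FBXL22 (0.067), HOXC8 (0.14), MYLK (0.15), the myosin light chain kinase of smooth muscle, and SNTB1 (0.17). ACTA1 was nearest to FBXL22 (0.16), TNC (0.18), KCNG1 (0.23), SNTB1 (0.23) and TPM2 (0.23). The main ACTB entry was nearest to RIT1 (0.019), PIKFYVE (0.026), HECA (0.032), PFN1 (0.042), the actin monomer binding protein profilin, and ACTR2 (0.044), a subunit of the Arp2/3 nucleator. ACTG1 was nearest to TRMT10A (0.044), ATP8A1 (0.045), PGRMC1 (0.050), ZNF710 (0.061) and PTPRM (0.061). Only 5 libraries enter each value, and genes with little variation are near to many others.

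ACTB is often used as a reference gene, so the spread of the actins was set beside that of genes used in that way. The coefficient of variation over the 5 libraries was 17.7% for the main ACTB entry and 22.7% for ACTG1, against a median of 17.5% over the 15815 genes tested. Among 3991 genes with a mean of at least 1000 the median was 10.9%, and 74.8% of them varied less than the main ACTB entry and 83.6% less than ACTG1. The duplicate ACTB entry had 97.1%, ACTC1 100.3%, ACTA1 78.1% and ACTA2 70.9%. Reference genes with lower values than the actins included PPIA (4.76%, its abundant entry), RPL19 (5.55%), SDHA (5.56%), YWHAZ (6.71%), both entries of TBP (7.18% and 7.69%), RPL15 (9.50%) and HPRT1 (15.9%), while B2M had 22.9%. GAPDH held 3 reads in all and a further PPIA entry held 64, so neither served here. For qPCR the paper chose PPIA and GAPDH as the most stable of a set of candidates that included ACTB. The 3 reads of the GAPDH entry therefore cannot be taken as the level of that gene.

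Partners of actin and related genes were described by 8 lists holding 105 tested entries. Not all of them act on actin itself: the smooth muscle list also holds DES, PLN and KCNMB1. Another list holds actin-related proteins outside filaments. By limma with Benjamini-Hochberg adjustment 0 of the 105 passed at 0.05, and 0% of all genes did, the smallest adjusted p of the lists being 0.178. At an unadjusted p under 0.05, 30 were higher and 2 lower in LF/LCL by limma, or 30.5% of the 105 entries against 11.5% of all genes. This count of 32 was 9 without LF/LCL replicate 1, 20 without SF/SCL replicate 3 and 16 with plain eBayes. A quasi-likelihood fit in edgeR, run on recovered reads, called 0 after adjustment, and 31 before it, where 11.7% of all genes were below 0.05. DESeq2 on the same reads called 7 of the 105 (6.67%), all higher in LF/LCL, against 2.89% of all genes. Without LF/LCL replicate 1 it called 2 of the 105. The median log2 difference was 0.24 over the 105 entries and 0.01 over all genes. Of the 105 entries 82 (78.1%) were higher in LF/LCL, against 50.8% of all genes. The lists were chosen with earlier results of these data known, so nothing is read from these shares.

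The smooth muscle contractile apparatus, which works on ACTA2 filaments, had the highest median of the 8 lists. All 16 entries were higher in LF/LCL (50.8% of all genes were), with a median log2 difference of 1.17. In DESeq2 5 passed, where 2.89% of all genes did, though the smallest adjusted p by limma was 0.302. DES, the muscle intermediate filament desmin, had 23805 and 12327 normalized reads in LF/LCL against 6659, 6562 and 2943 in SF/SCL, a log2 difference of 1.76 ± 0.45 (SE). LMOD1, leiomodin, which nucleates filaments in smooth muscle, differed by 1.18 ± 0.30 (SE) and PLN, the calcium pump regulator phospholamban, by 0.84 ± 0.23 (SE). TAGLN, an actin bundling protein of smooth muscle, differed by 1.62 ± 0.50 (SE) and MYLK by 1.53 ± 0.49 (SE). These 5 genes are the ones called by DESeq2. The summed reads of the list were 145459 and 81386 in LF/LCL against 56987, 59873 and 30879.9 in SF/SCL. As with the actins, LF/LCL replicate 1 was highest and SF/SCL replicate 3 lowest, and the part of smooth muscle content in the levels of ACTA2 was not tested.

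Crosslinking and membrane anchoring proteins had a median of 0.37, with 16 of 19 entries higher. DESeq2 called 2 of them, and 2.89% of all genes. FLNC, the muscle filamin, had 6381 and 6067 normalized reads in LF/LCL against 4126, 3877 and 3710.0 in SF/SCL, a log2 difference of 0.67 ± 0.10 (SE) with an adjusted p of 0.178 by limma. PLS3, the bundling protein plastin 3, differed by 0.55 ± 0.13 (SE). VCL, vinculin, which ties filaments to adhesion sites, differed by 0.50 ± 0.13 (SE) and passed in none of the 3 tests. The paper reports VCL as higher in LF/LCL ampulla, by its own test of the sequenced libraries and by qPCR in more animals. Among genes of a cytoskeleton and matrix process enriched in LF/LCL ampulla it also lists PFN1, ACTR2, ARPC4, PLS3 and, by symbol, ACTB.

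Proteins that bind monomers and turn filaments over had a median of 0.35, with 18 of 21 entries higher and 0 called by limma, edgeR or DESeq2. Their lowest p values by limma were those of PFN1 (log2 difference 0.39 ± 0.11, SE), CFL1 (0.33), the severing protein cofilin, and CAPG (0.61), a capping protein. Nonmuscle myosin II had 3 of 5 entries higher and a median of 0.24, led by the light chain MYL6 (0.65 ± 0.20, SE) ahead of the heavy chains MYH14 (0.41) and MYH9 (0.24). The SRF list, a transcription factor that drives actin genes and the coactivators that sense free monomers, had a median of 0.23 over 3 entries: MRTFA (0.33), SRF (0.23) and MRTFB (0.07).

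In the remaining lists the medians lay near that of all genes. Filament nucleation had 17 of 24 entries higher and a median of 0.08, with ACTR2 at 0.36 ± 0.11 (SE), ARPC4, a subunit of the same complex, at 0.31, and the nucleator SPIRE2 at -0.36. Actin folding and modification had 5 of 10 entries higher and a median of 0.01, with the chaperonin subunits CCT8 at -0.27, TCP1 at -0.16 and CCT5 at -0.15. Actin-related proteins outside filaments had 4 of 7 tested entries higher and a median of 0.05, with ACTR1A at 0.18, ACTR1B at 0.22 and ACTL6A at 0.20.

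**Figure D4:**
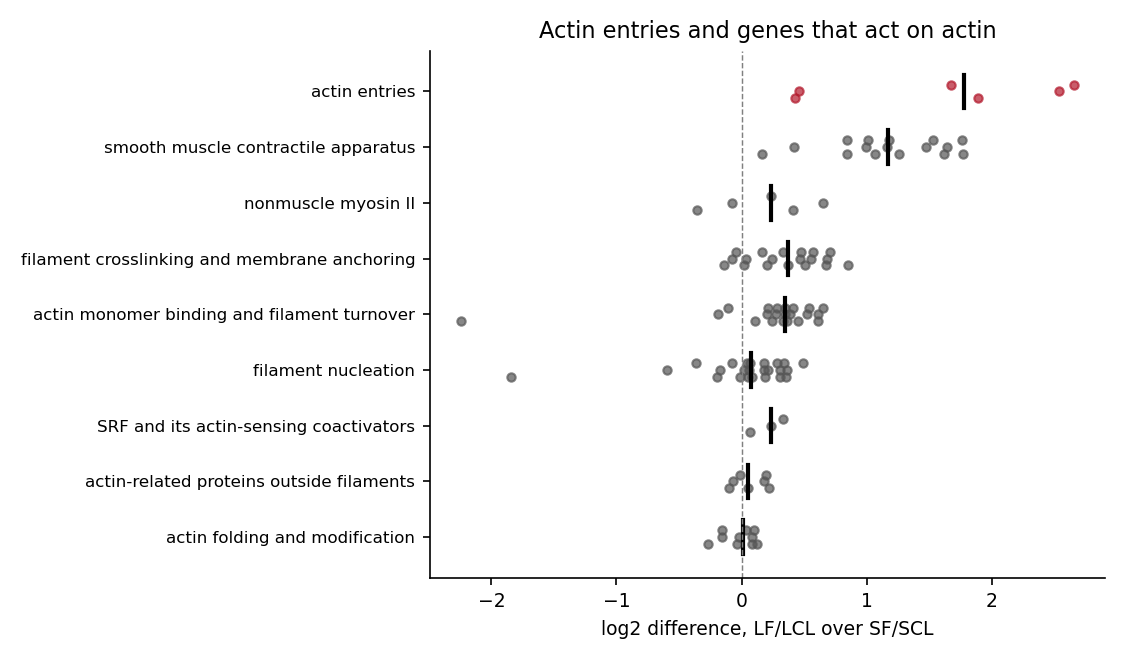
Log2 difference, LF/LCL over SF/SCL, of each tested entry of the 8 lists and of the 6 actin entries (red), 1 point per entry, with a bar at the median of each group. The smooth muscle list has its median at 1.17 and actin folding and modification at 0.01.

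ACTA1 and ACTC1 are named for striated muscle, so markers of that tissue were counted. Of 30 marker symbols 26 were in the table, in 27 entries, of which 15 passed the filter and 2, MYL1 and MYL2, had no read in any library. Summed reads of the list were 1247 and 1029.9 in LF/LCL against 496, 532 and 435 in SF/SCL, below the ACTA1 reads alone in 4 of the 5 libraries. Of the 15 tested entries 9 were higher in LF/LCL, against 50.8% of all genes. Without overlap between the groups, 5 were higher (15% of all genes were) and 2, CKM and MYBPC1, lower. How many of all genes were lower without overlap was not computed, so nothing is read from the 2. DESeq2 called 2.89% of all genes, and in this list only the 2 entries with the symbol MYH7, slow myosin heavy chain. The first (ENSBTAG00000009703), which the paper lists as an uncharacterized protein, averaged 285.9 normalized reads in LF/LCL against 80.3 in SF/SCL. The other averaged 420.5 and 78.3, and these entries made up most of the LF/LCL sums. The part of striated muscle fibres in the reads of ACTA1, ACTC1 and the duplicate ACTB entry was not tested.

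The summed markers of other cell types followed other orders over the libraries, though single markers did not always. Pericyte markers summed to 7550.3 and 3954 in LF/LCL against 4398, 2816 and 5427 in SF/SCL, and fibroblast markers to 80174 and 32619 against 37537, 21071 and 46508, so that both sets overlapped between groups and were lowest in SF/SCL replicate 2. Their medians of log2 difference were 0.54 (6 of 7 entries higher, 1 called by DESeq2) and 0.56 (7 of 8 higher, none called by DESeq2 and 0 below an unadjusted 0.05 by limma). The pericyte marker called was MCAM, with 2066 and 1049 normalized reads in LF/LCL against 764.2, 746.9 and 668.6 in SF/SCL, the same order of libraries as ACTA2. Epithelial markers summed to between 180222 and 217744 with overlapping groups, a sum made up mostly of OVGP1, and single markers went both ways. Of the 10 entries 3 (PAX8, EPCAM and KRT8) were higher and 5 (SNTN, RSPH1, FOXJ1, TPPP3 and CCDC78, genes of ciliated cells) lower in every LF/LCL library than in any SF/SCL library. Of all genes tested 15% were higher in this way. The share that was lower in this way was not computed, so nothing is read from the count of lower entries. By limma 2 of the epithelial entries were higher and 4 lower at an unadjusted p under 0.05, where 11.5% of all genes were. DESeq2 called PAX8 higher and SNTN and RSPH1 lower in LF/LCL, and called 2.89% of all genes. PAX8, with 1279 and 1203 normalized reads in LF/LCL against 952.4, 769.4 and 715.8 in SF/SCL, also had the order of ACTA2 and the main ACTB entry. The part of these cells in the actin levels was not tested.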

How the data were processed

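RNA from ampulla of 5 cows was sequenced. The authors trimmed reads with seqyClean, aligned them with TopHat2 2.0.8 and Bowtie2 2.1.0 to the masked UMD 3.1 cattle assembly, counted uniquely placed reads per Ensembl gene with HTSeq 0.5.4p2, and deposited a normalized signal, which is reads divided by a DESeq 1.12.1 size factor. Strand use in counting was not given in the sources used here. Whole reads were recovered for 100% of values (tolerance 0.1 read), and their number limits the precision of low entries.

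Entries were found by symbol. LF/LCL (n = 2) and SF/SCL (n = 3), grouped by sample titles, were compared with limma 3.58.1 (R 4.3.3; trend and robust on) on log2(value + 1) for the 15815 genes with a mean over 5, two-sided, with Benjamini-Hochberg adjustment at 0.05. P-values rest on the spread between these cows, in limma with variances moderated across all genes. The cows came from the ends of each treatment, so this spread is not that of all treated cows. Alternatives on recovered reads were edgeR 4.0.16 and DESeq2 1.42.0, with other pseudocounts (0.5 and 5), scalings and filters, plain eBayes, and leaving out each library. A log2 difference understates the change of low values.

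The actin genes and all lists were chosen with earlier results of these data known. Named genes are the actin entries, the 3 smallest p values of each list (mean of at least 50), the 5 nearest genes in pattern, and the abundant epithelial markers. TAGLN, MYLK, FOXJ1, CCDC78, KRT8, MYL1 and MYL2 were named after their values were seen where they fall outside this rule. MYOCD, MYL12A, TMOD3 and TWF2 were matched to no entry by symbol, and MRTFA and MRTFB were matched as MKL1 and MKL2. No actin coordinates or sequences were used here.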

Additional observations from a re-analysis of the deposited data

How the results depend on the processing

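The 6 actin entries stayed higher in LF/LCL under each alternative run (12 per entry), the log2 differences moving by less than the spread between replicates. Leaving out single libraries gave 1.16 to 2.37 for ACTA1, 1.09 to 2.09 for ACTA2, 0.36 to 0.49 for the main ACTB entry, 1.49 to 3.35 for the duplicate ACTB entry, 1.64 to 3.41 for ACTC1 and 0.28 to 0.64 for ACTG1. The coefficient of variation of ACTG1 ranged from 14.5% (without SF/SCL replicate 3) to 26.0%. Of the 105 entries of the 8 lists of actin partners and related genes, limma and edgeR called 0 and DESeq2 called 7. In fits added after seeing the data, DESeq2 called 2 of them without LF/LCL replicate 1 (268 among all genes) and 5 without SF/SCL replicate 3 (293 among all genes). At an unadjusted p under 0.05 the limma count was 32. It was 16 with plain eBayes and ranged from 9 (without LF/LCL replicate 1) to 30 with single libraries left out, being 20 without SF/SCL replicate 3, and in DESeq2 it was 8 without LF/LCL replicate 1. A fit without an LF/LCL library assumes that the remaining one varies like SF/SCL. No paired analysis was possible because the labels give animal numbers that are not shared between the groups. The reads behind ACTC1 in SF/SCL replicate 3 (31) limit its value there.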
